A study of Mus musculus with 60 samples.

Results

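Whole blood of mice given BIO300 at 100 mg/kg was compared by RNA sequencing between Day 1 (48 h since dosing ended) and Day 0 (24 h). The comparison took all 6 mice labelled Med on Day 1 (animals 37 to 42) and all 6 on Day 0 (animals 7 to 12), chosen by treatment and day alone, 12 of the 60 mice in the series. Each was a male CD2F1 mouse, 5 to 6 weeks old at purchase, left unirradiated, and dosed by oral gavage over 6 days for a total of 12 doses. BIO300 is a formulation of synthetic genistein, a plant isoflavone that binds oestrogen receptors, here given as an oral powder suspension. Every mouse was bled once, so the days hold different animals. The same step in time was available in vehicle-treated mice (a water, methylcellulose and povidone carrier) and in mice given 50 mg/kg or 200 mg/kg, again with 6 mice per day and no mouse in common. The question was which genes differed between 24 and 48 h after dosing stopped at this dose. The labels gave no batch or library date, and any difference in handling between the days cannot be told apart from the step in time.

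Blood RNA comes from several sources at once. Mouse red cells leave the marrow as reticulocytes that still hold globin and heme synthesis mRNA. Platelets have no nucleus and carry the mRNA their megakaryocytes packed into them, whereas lymphocytes and monocytes have nuclei and hold both cytoplasmic mRNA and nuclear noncoding RNA. In such bulk samples fewer cells of a type and less RNA per cell cannot be told apart. CPM below are counts scaled to a library of 1000000 on the TMM (trimmed mean of M-values) scale of these 12 mice, a log2 fold change is Day 1 minus Day 0 with its standard error (SE), and a differentially expressed gene (DEG) was one with an adjusted p (Benjamini-Hochberg) under 0.05 in edgeR's quasi-likelihood test and an absolute log2 fold change over 1.

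On Day 1, platelet, erythroid, mitochondrial and cell division genes were higher, and B cell, T cell, MHC class II and many noncoding genes were lower. Of 23097 genes tested, 10065 were DEGs (43.6%), with 3571 higher (15.5%) and 6494 lower (28.1%). Among the protein-coding genes alone, 17.4% were higher and 17.8% lower. A total of 2654 DEGs had a mean of at least 10 CPM on either day, and among these 1803 were higher and 851 lower. On the TMM scale the 6 mice of one day lay wholly above those of the other for 8994 genes (38.9%). The scaling factors did not overlap between days either, so equal raw shares in all mice would also give higher Day 1 values without overlap. Against the same step in vehicle-treated mice, where edgeR called 0 of 24375 genes (0.0%; smallest adjusted p 0.204; 3007 genes at an unadjusted p under 0.05), the change at 100 mg/kg differed past both thresholds for 10890 of 25908 genes (42.0%), 4073 (15.7%) more positive and 6817 (26.3%) more negative. These included 9235 of the 10065 DEGs, in the same direction. Both tests used the same mice given 100 mg/kg, so this count is not independent support. Without the 3 odd-numbered Day 0 mice, left out after the data were seen, 6373 DEGs were called, and with the filterByExpr filter on low counts 6046, of which 46.6% were higher.

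Scaling set where the line between higher and lower fell. TMM factors were 0.932 to 2.29 on Day 0 and 0.593 to 0.819 on Day 1, and with total counts in their place the log2 fold changes shifted by a median of -1.14, leaving 955 genes higher (4.13%) and 12894 lower (55.8%). With TMM, 35.5% of DEGs were higher, and with total counts 6.9%. All 6494 genes lower with TMM were also lower with total counts, and 955 of the 3571 higher genes were higher under both. Each direction and each lack of overlap below is relative to the TMM scale unless total counts or raw shares are named. DESeq2 size factors, upper-quartile scaling and a scaling from protein-coding genes moved the median by -0.04 to 0.07.

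**Figure D1:**
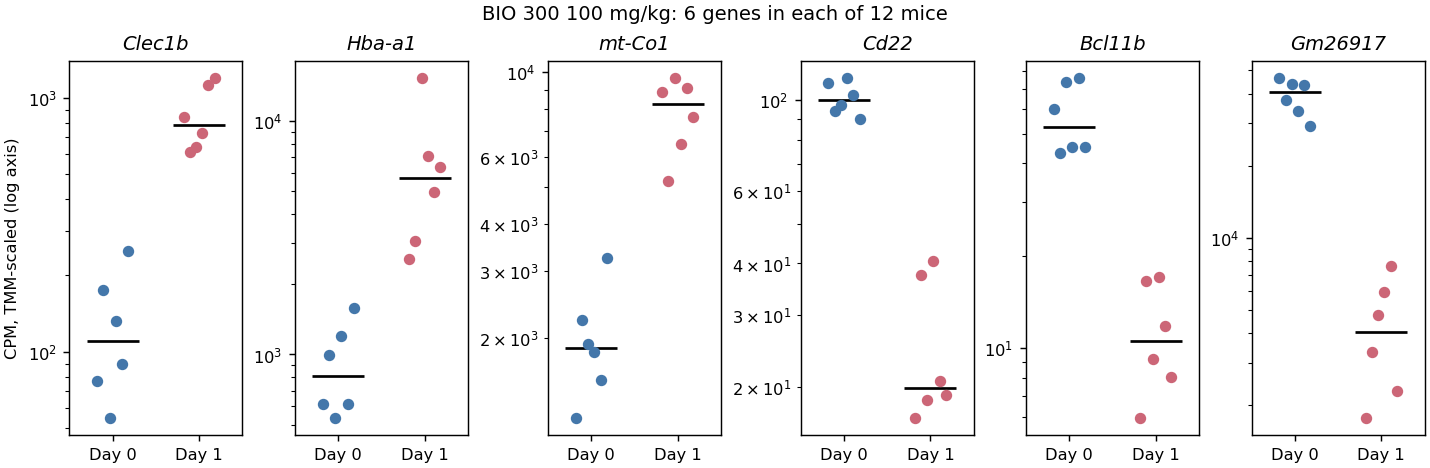
CPM on the TMM scale (log axes, which differ between panels) of 6 genes in each of the 12 mice, Day 0 in blue and Day 1 in red, with a bar at the median of 6 mice. Clec1b, Hba-a1 and mt-Co1 lay higher on Day 1 in every mouse and Cd22, Bcl11b and Gm26917 lower, without overlap.

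Platelet genes rose as a whole list. All 18 members of the platelet list were DEGs higher on Day 1, against 15.5% of all genes tested. Overlap between the days was absent in 38.9% of all genes and in all 18 members. Their median log2 fold change was 2.47, beside -0.31 over all genes tested. The smallest was Selp (P-selectin, an adhesion receptor stored in platelet granules) at 2.03 ± 0.24 and the largest Clec1b at 2.72 ± 0.36. Leaving out any single mouse kept all 18, and with total counts 17 remained higher, the exception being Selp with a log2 fold change of 0.91.

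Clec1b encodes CLEC-2, the podoplanin receptor of platelets. It measured 55.0, 111 and 249 CPM (lowest, median, highest) on Day 0 and 612, 783 and 1197 CPM on Day 1 (adjusted p = 4.03e-05, edgeR). The lowest Day 1 mouse was above the highest Day 0 mouse. Within Day 0 the even-numbered animals 8, 10 and 12 were higher (132 to 249 CPM) than the odd-numbered 7, 9 and 11 (55.0 to 89.4 CPM).

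Pf4, the chemokine platelet factor 4, rose from 142, 266 and 581 CPM to 1455, 1834 and 2775 CPM, a log2 fold change of 2.61 ± 0.36 (adjusted p = 5.50e-05, edgeR). Ppbp, precursor of a second granule chemokine and the most abundant member, rose from 687, 1207 and 2633 CPM to 6212, 7710 and 12413 CPM (2.52 ± 0.47, adjusted p = 0.00045, edgeR). Again no mouse of Day 1 fell within the Day 0 range. The von Willebrand factor receptor subunits Gp9 (2.63 ± 0.37), Gp1bb (2.70 ± 0.37) and Gp5 (2.48 ± 0.35) and the fibrinogen receptor subunit Itga2b (2.47 ± 0.41) changed by nearly the same amount.

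As the platelet genes moved together, the sequence before their start sites is shown. RefSeq gave a promoter for 14 of the 18 (build GRCm38.p6, 1 start each), and the 250 bases upstream were searched on both strands for a motif of the GATA factors (AGATAA) and a motif of the ETS factors (AGGAAG). The GATA letters stood in 2 of 14 promoters (14.3%) and in 10.3% of 27025 mouse promoters of the same length. The ETS letters stood in 7 of 14 (50.0%) and in 29.2% of all promoters. The 4 promoters shown are those of the receptor subunits Gp5, Gp9 and Itga2b and of the chemokine Pf4, all with at least 1 ETS match, at chr16:30310782-30311031 (minus strand), chr6:87777820-87778069 (plus), chr11:102469884-102470133 (minus) and chr5:90772185-90772434 (plus). Capitals mark both motifs, read on either strand (TTATCT and CTTCCT are the reverse complements). Gp5 held 2 GATA matches and 1 ETS match, Itga2b 2 ETS matches. A match is a description of these letters, not a site or a cause.
Gp5: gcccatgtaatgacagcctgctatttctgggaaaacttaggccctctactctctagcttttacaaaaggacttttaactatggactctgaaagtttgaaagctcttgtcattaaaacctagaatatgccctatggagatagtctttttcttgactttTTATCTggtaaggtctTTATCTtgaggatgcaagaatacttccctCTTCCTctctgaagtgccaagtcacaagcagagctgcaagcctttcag
Gp9: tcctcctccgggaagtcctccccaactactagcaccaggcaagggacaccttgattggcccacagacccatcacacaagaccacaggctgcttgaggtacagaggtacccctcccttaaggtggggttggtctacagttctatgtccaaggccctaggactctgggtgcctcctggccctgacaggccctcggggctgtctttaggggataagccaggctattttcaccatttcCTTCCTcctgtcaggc
Itga2b: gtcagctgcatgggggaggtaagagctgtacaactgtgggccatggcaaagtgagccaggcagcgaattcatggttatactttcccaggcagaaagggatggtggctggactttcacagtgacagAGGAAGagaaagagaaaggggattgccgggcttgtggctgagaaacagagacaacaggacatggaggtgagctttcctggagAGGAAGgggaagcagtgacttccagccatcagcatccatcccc
Pf4: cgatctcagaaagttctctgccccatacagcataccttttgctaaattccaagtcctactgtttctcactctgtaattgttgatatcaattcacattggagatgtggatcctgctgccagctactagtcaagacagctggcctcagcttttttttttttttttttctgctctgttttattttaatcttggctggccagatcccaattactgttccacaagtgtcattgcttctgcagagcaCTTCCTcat

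Several genes outside the platelet list rose by a similar amount. Among protein-coding DEGs with at least 10 CPM and no overlap, the 8 largest rises were those of Ctla2a, Hba-a1, Tmem246, F11r, Ly6g6f, Npy, Rgs18 and Clec1b, between 2.72 and 2.83 on the log2 scale. Rgs18 encodes a regulator of G protein signalling of platelets and F11r a junctional adhesion molecule that platelets carry. Ctla2a, a cysteine protease inhibitor, went from 380, 708 and 1611 CPM to 3880, 5694 and 7958 CPM (2.83 ± 0.44, adjusted p = 0.00011, edgeR). Npy, the peptide neuropeptide Y, went from 12.3, 28.4 and 59.9 CPM to 177, 211 and 292 CPM (2.73 ± 0.34, adjusted p = 2.42e-05, edgeR). Every Day 1 mouse was above every Day 0 mouse for both. F13a1, the coagulation factor XIII A subunit of platelets and monocytes, rose by 2.25 ± 0.32, and Gata2, a transcription factor of megakaryocytes, basophils and progenitors, by 2.10 ± 0.27, although both stood in the lists for other cells.

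Erythroid genes were also higher, less evenly. The globin list had 7 of 10 members higher and 0 lower (median 1.45), heme synthesis 4 of 8 (1.25), the red cell membrane 7 of 15 (0.83) and reticulocyte maturation 4 of 14 (0.99). These shares of 70.0, 50.0, 46.7 and 28.6% stand beside 15.5% higher over all genes tested. With total counts, 2 globins (Hba-a1 and Hba-a2) stayed higher and no member of the other 3 lists did. The red cell membrane median turned to -0.14, with 2 of 15 members lower. That list took 1.38 to 2.96% of all counts on Day 0 and 0.963 to 1.45% on Day 1. Without the 3 odd-numbered Day 0 mice, 2 of 10 globins, 1 of 8 heme synthesis genes, 2 of 15 membrane genes and 1 of 14 reticulocyte genes were called. In those odd-numbered mice the globin list took 5.42 to 9.08% of all counts, in the even-numbered ones 12.6 to 14.9% and on Day 1 14.0 to 22.5%.

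Hba-a1, adult alpha globin, measured 535, 807 and 1583 CPM on Day 0 and 2552, 5672 and 15261 CPM on Day 1 (2.83 ± 0.53, adjusted p = 0.000481, edgeR). Hba-a2, its near-identical copy, was at 2.55 ± 0.46. Per the methods of the study unique hits per gene were counted, and how reads that fit both copies were handled was not tested. The methods of the study state that globin transcripts were removed before sequencing, and the part of that step in the globin values was not tested. Hbb-bs, adult beta globin and the most abundant globin, measured 22050, 69246 and 134770 CPM on Day 0 and 174810, 220280 and 350140 CPM on Day 1. On this scale the days did not overlap, yet the log2 fold change of 1.63 carried an SE of 2.04 (adjusted p = 0.503, edgeR). DESeq2 called it (adjusted p = 6.76e-05). A 2-sided exact permutation test over the 12 mice gave p = 0.00216, the smallest that 6 mice against 6 allow. Any gene without overlap gives this value, so it adds nothing to the lack of overlap.

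Alas2, the erythroid enzyme of the first step of heme synthesis, had a similar spread. It measured 9612, 34204 and 66038 CPM on Day 0 and 78015, 89279 and 119290 CPM on Day 1, without overlap on the TMM scale. In raw shares of all counts the days overlapped, at 2.20 to 6.15% on Day 0 and 5.58 to 7.11% on Day 1. edgeR gave 1.40 ± 1.28 (adjusted p = 0.356) and DESeq2 an adjusted p of 0.000273. The exact permutation test again gave p = 0.00216, fixed by the lack of overlap on the TMM scale. Urod, a later enzyme of the pathway, was called (1.42 ± 0.32, adjusted p = 0.00193, edgeR), as were Rhag of the Rh membrane complex (1.78 ± 0.33) and the transferrin receptor Tfrc (1.58 ± 0.36). The spectrin-associated protein Epb41 was not, with 4079 to 18465 CPM on Day 0, 7678 to 13943 CPM on Day 1 and -0.03 ± 0.56.

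The genes of cell division moved with these lists. Of 22 cell cycle genes, 13 were higher (59.1%, against 15.5% of all genes tested) and 0 lower (median 1.27). With total counts 1 was higher and 3 lower. Top2a, the topoisomerase of S phase and mitosis, went from 23.5, 46.2 and 87.2 CPM to 138, 167 and 204 CPM (1.85 ± 0.28, adjusted p = 8.73e-05, edgeR). Mki67, the Ki-67 proliferation antigen, went from 91.1, 234 and 456 CPM to 520, 543 and 576 CPM (1.24 ± 0.32, adjusted p = 0.0041, edgeR). Neither overlapped between days on the TMM scale, and relative to their medians the Day 1 mice spread less than the Day 0 mice. Pcna, the replication clamp, gave 18.0 to 25.2 CPM on Day 0 and 19.2 to 24.2 CPM on Day 1, with 0.03 ± 0.11. Replication-dependent histones, whose mRNAs mostly lack a poly(A) tail, had 18 of 58 members higher (31.0%) and 0 lower (median 0.62), with total counts 3 higher and 14 lower. Hist1h4i (2.43 ± 0.30) and Hist1h2bc (2.30 ± 0.33) stayed higher under both scalings.

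Transcripts of the mitochondrial genome rose nearly as a set. Of 12 mitochondrial mRNAs tested, 11 were higher (91.7%, against 15.5% of all genes tested), with a median of 2.06, and 5 remained so with total counts. All 18 mitochondrial tRNAs tested were higher as well (median 2.35). mt-Co1, a core subunit of cytochrome c oxidase, measured 1232, 1882 and 3258 CPM on Day 0 and 5194, 8246 and 9664 CPM on Day 1 (1.96 ± 0.41, adjusted p = 0.000994, edgeR). mt-Cytb of complex III rose from 216, 310 and 635 CPM to 812, 1390 and 2954 CPM (2.16 ± 0.37, adjusted p = 0.000231, edgeR). The days did not overlap for either. mt-Co3 had the largest fold change (4.49 ± 0.55) but lay at 0.0677 to 0.166 CPM on Day 0 and 0.91 to 7.56 CPM on Day 1. The list took 0.348 to 0.791% of counts on Day 0 and 0.63 to 1.07% on Day 1, with Day 0 mouse 9 inside the Day 1 range.

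Nuclear-encoded respiratory chain genes were higher in 21 of 81 (median 0.66) and cytosolic ribosomal protein genes in 12 of 80 (0.38), neither with a lower member. The ribosomal protein share of 15.0% was near that of all genes tested (15.5% higher), and the respiratory chain share was 25.9%. Their medians were -0.54 and -0.74 with total counts, where 13 and 18 members were lower. Cox8a, a subunit of cytochrome c oxidase, reached 1.54 ± 0.26, Atp5b, the catalytic subunit of ATP synthase, 1.13 ± 0.32, and Rpl41, the smallest ribosomal protein, 1.97 ± 0.38. Proteasome subunits had 4 of 38 higher (10.5%) and a median of -0.09.

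B and T cell genes were lower on Day 1. All 14 B cell genes were lower (median -1.51), against 28.1% of all genes tested, and all 14 lacked overlap, against 38.9% of all genes. All 14 were also called without any single mouse, with total counts, and without the odd-numbered or the even-numbered Day 0 mice. Cd22, the inhibitory B cell receptor, fell from 89.8, 100 and 113 CPM to 16.8, 19.9 and 40.5 CPM (-1.99 ± 0.22, adjusted p = 1.50e-05, edgeR). Ighm, the IgM heavy chain, fell from 386, 449 and 586 CPM to 110, 144 and 278 CPM (-1.40 ± 0.24, adjusted p = 0.000224, edgeR). Pax5, the transcription factor that sets B cell identity, was at -1.75 ± 0.27. Igha, the IgA heavy chain of plasma cells and no list member, had one of the largest falls, from 23.2, 95.6 and 155 CPM to 2.59, 8.71 and 13.2 CPM (-3.38 ± 0.44, adjusted p = 3.55e-05, edgeR).

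Of 17 T cell genes, 15 were lower and none higher (median -1.62), between 13 and 16 when a mouse was left out and 10 without the 3 odd-numbered Day 0 mice. Bcl11b, a transcription factor of T cell commitment, fell from 43.3, 52.6 and 75.8 CPM to 5.94, 10.5 and 17.0 CPM (-2.32 ± 0.26, adjusted p = 1.55e-05, edgeR). The coreceptors Cd4 (-1.98 ± 0.22) and Cd8a (-1.97 ± 0.30) fell alike, and Cd3e of the receptor complex by 1.81 ± 0.25 on the log2 scale. Lat, an adaptor of T cell receptor signalling that platelets also use, had the only positive value, 0.68 ± 0.14, with 23.5 to 31.6 CPM on Day 0 and 37.2 to 61.0 CPM on Day 1, and turned to -0.51 with total counts.

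MHC class II genes were lower too. That list had 7 of 10 members lower (70.0%, against 28.1% of all genes tested), with a median of -1.25. Overlap between the days was absent in 10 of 10, against 38.9% of all genes. Ciita, the coactivator of these genes, fell from 69.3, 72.7 and 87.4 CPM to 11.7, 18.0 and 35.8 CPM (-1.80 ± 0.24, adjusted p = 3.65e-05, edgeR), and Cd74, the invariant chain, was at -1.27 ± 0.27. Among 16 toll-like receptor genes 7 were lower (43.8%) and none higher (median -0.95), including the nucleic acid sensor Tlr9 at -2.39 ± 0.31. The natural killer list had 4 of 11 lower (36.4%, against 28.1% of all genes), with values close to the threshold (-1.01 to -1.06), and DESeq2 called 0 of 11, while fits without 1 mouse called 0 to 5. In edgeR 7 of 11 had an unadjusted p under 0.05. Gzma, the granzyme with the highest level in that list, was 31.6 to 89.9 CPM on Day 0 and 34.4 to 47.1 CPM on Day 1 (-0.26 ± 0.24).

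Counts in the myeloid lists stand beside 15.5% higher and 28.1% lower over all genes tested, and 17.4 and 17.8% of protein-coding genes. Of 13 neutrophil genes 3 were higher (23.1%), S100a9 (1.65 ± 0.17), S100a8 (1.57 ± 0.17) and Retnlg (1.25 ± 0.18), and none lower, and with total counts none was higher and 6 were lower. S100a9, the larger calprotectin subunit, went from 49.7, 66.4 and 81.5 CPM to 157, 214 and 254 CPM without overlap, whereas the G-CSF receptor Csf3r spanned 125 to 164 CPM on Day 0 and 93.6 to 220 CPM on Day 1. Of 12 monocyte genes, Ccr2 (-1.22 ± 0.22), Cx3cr1 (-1.40 ± 0.30) and Ly6c2 (-1.21) were lower (25.0%, near the share of all genes) and F13a1 was higher (8.33%). The basophil and eosinophil list had 1 of 11 higher (Gata2) and 1 lower (Prss34, -1.74), 9.09% in each direction.

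**Figure D2:**
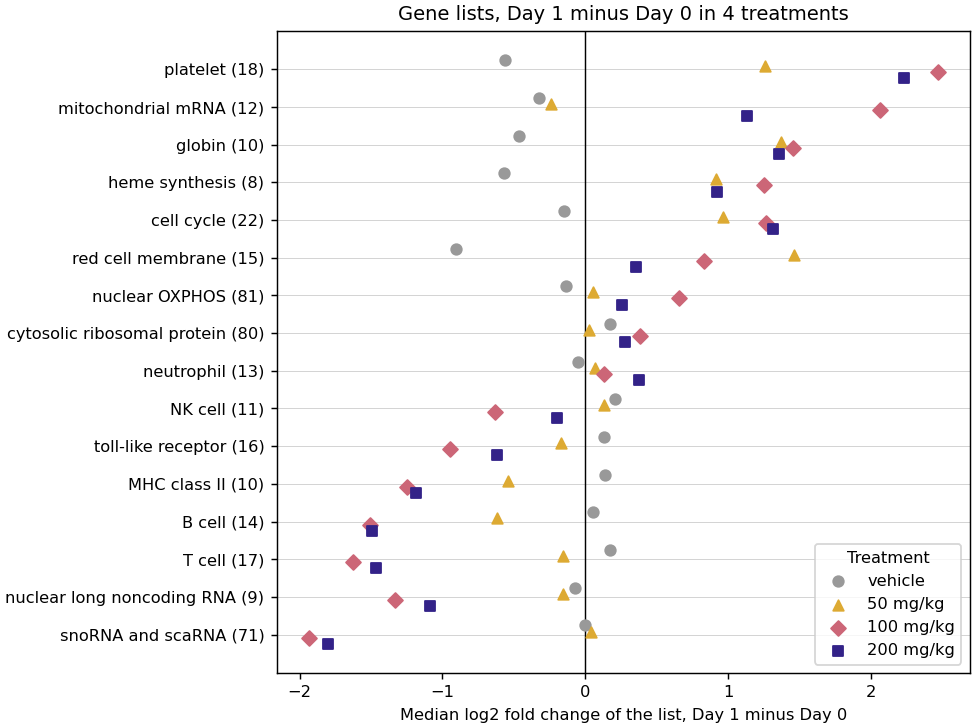
Median log2 fold change, Day 1 minus Day 0, over the tested members of 16 gene lists (number tested at 100 mg/kg in brackets) in mice given vehicle, 50, 100 or 200 mg/kg. At 100 mg/kg the platelet list lay at 2.47 and the T cell list at -1.62, beside -0.56 and 0.18 with vehicle and 2.23 and -1.46 at 200 mg/kg.

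Response lists were read against 15.5% higher and 28.1% lower over all genes. Of 13 NRF2 pathway genes 5 were higher (38.5%) and none lower, among them the antioxidant enzymes Srxn1 (2.58 ± 0.34), Gsr (2.10 ± 0.26) and Gclm (1.28 ± 0.32). Srxn1 and Gsr were higher with total counts too, where 3 members of the list were lower. Among 18 interferon-stimulated genes 8 were lower (44.4%), such as Oas2 (-2.09 ± 0.42) and Mx1 (-2.07 ± 0.40), and 2 higher, Ifit2 (1.98 ± 0.22) and Isg15 (1.03). Ifit2 rose from 22.2, 30.9 and 51.8 CPM to 98.5, 120 and 186 CPM without overlap. Rsad2, the most abundant of that list, was 971 to 4305 CPM on Day 0 and 3604 to 5621 CPM on Day 1 (0.73 ± 0.42). The p53 target Phlda3 rose by 2.58 ± 0.32 and 1 further gene of its list of 14, Bbc3, by 1.24, a share of 14.3% that is near that of all genes. The S100 list had 6 of 12 higher (50.0%), with S100a1 at 2.52 ± 0.32 and S100a10 at 2.13 ± 0.25, and S100g lower.

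Genistein binds oestrogen receptors. In the list of these receptors, their coregulators and targets, 3 of 11 genes passed the test (27.3%), below the 43.6% of all genes tested. Among the 3 were the coactivators Ncoa1 (1.35 ± 0.22) and Ncoa3 (-1.02). Of protein-coding genes alone, 17.4% were higher and 17.8% lower. Of 8 aryl hydrocarbon receptor genes 0 passed with edgeR or DESeq2, and 2 had an unadjusted p under 0.05 in edgeR. Of 19 immediate early genes, Jund was higher (1.12) and Myc (-1.48 ± 0.18), Egr1 (-1.25 ± 0.23) and Egr2 (-1.35) lower, of 19 clock genes Npas2 was higher (1.81 ± 0.31) and Arntl lower (-1.64 ± 0.26), and of 12 heat shock and 9 glucocorticoid-responsive genes 2 and 1 were higher. The shares called in these 4 lists, 21.1, 10.5, 16.7 and 11.1%, were also below that of all genes.

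Several noncoding classes had a larger share of lower genes than the protein-coding class. Of 1187 genes annotated TEC (models that await experimental evidence), 73.0% were lower and 4.47% higher, and of 153 sense_intronic genes 78.4% and 4.58%. For protein-coding genes the shares were 17.8 and 17.4% of 15561. The lower share was 62.2% of 233 snoRNA, 57.8% of 275 miRNA, 53.4% of 1284 antisense and 53.3% of 240 snRNA genes, and 40.2% of 986 lincRNA genes, of which 18.0% were higher. Among receptor segment genes of lymphocytes, 83.8% of 68 TR_J_gene and 72.0% of 193 IG_V_gene members were lower. Whether counting used strand is not given in the sources used here, so reads of antisense and intronic models cannot be separated from those of the genes they overlap. The TEC and sense_intronic models together took 0.119 to 0.321% of counts on Day 0 and 0.0417 to 0.0535% on Day 1.

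**Figure D3:**
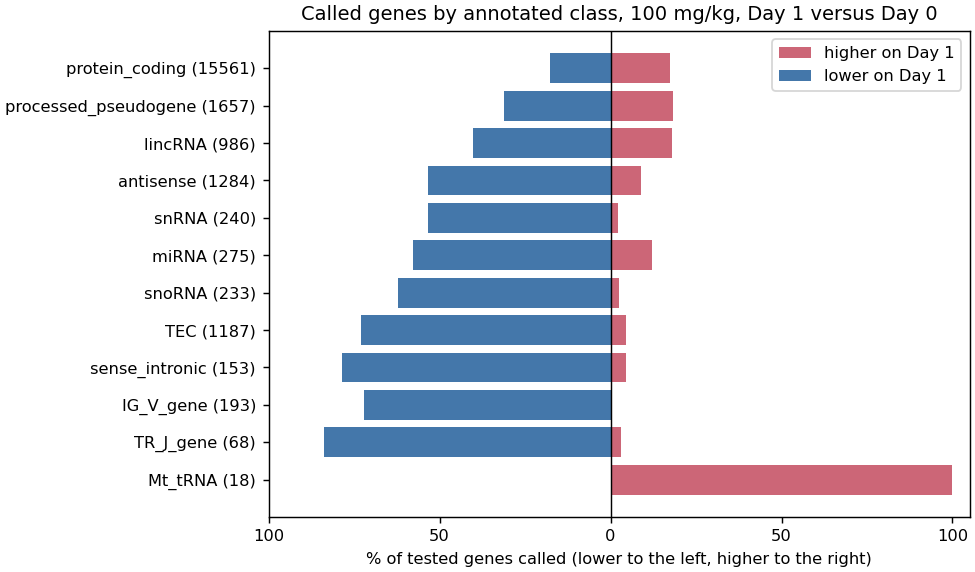
Percent of tested genes in 12 annotation classes (number tested in brackets) called lower (left, blue) or higher (right, red) on Day 1. Mt_tRNA was wholly higher, protein-coding genes were near balance at 17.4 and 17.8%, and sense_intronic and TEC models were mostly lower.

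Gm26917, annotated as a long noncoding RNA gene at chr17:39843013-39846341, was the most abundant annotated gene to fall. It measured 29294, 40606 and 46402 CPM on Day 0 and 1765, 4049 and 7609 CPM on Day 1 (-3.19 ± 0.81, adjusted p = 0.00414, edgeR). In raw shares it took 9.16, 4.31, 10.0, 4.22, 7.06 and 2.73% of counts in mice 7 to 12 and 0.134 to 0.454% in the 6 Day 1 mice. The days did not overlap, and within Day 0 each odd-numbered mouse exceeded each even-numbered one. Gm42418, also annotated as long noncoding RNA, was named after its values were seen. It took 1.88 to 2.54% of counts on Day 0 and 2.58 to 7.58% on Day 1, and its log2 fold change of 2.10 ± 1.07 was not called (adjusted p = 0.103, edgeR). Which RNAs the reads of Gm26917 and Gm42418 came from was not tested. For Gm26917, mice given vehicle held 3.55 to 8.02% on Day 0 and 5.32 to 8.77% on Day 1, and those given 200 mg/kg 2.28 to 7.94% and 0.0562 to 1.46%.

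Among nuclear RNAs, changes varied in size. Neat1, the scaffold of paraspeckles, went from 37.0, 45.7 and 57.7 CPM to 14.7, 16.2 and 20.0 CPM (-1.47 ± 0.13, adjusted p = 5.72e-06, edgeR), and Malat1, of nuclear speckles, from 2065, 2427 and 2841 CPM to 1201, 1553 and 1908 CPM without reaching the fold threshold (-0.65 ± 0.25). The list of nuclear long noncoding RNAs, which includes Gm26917, had 5 of 9 lower (55.6%, against 28.1% of all genes tested) and 1 higher, the Myc neighbour Pvt1 at 1.01. Rn7sk, the 7SK RNA that holds back transcription elongation, was lower (-1.26 ± 0.39), with 1 Day 0 mouse at 939 CPM below the Day 1 range of 1010 to 1718 CPM. Small nucleolar and Cajal body RNAs had 39 of 71 tested lower (54.9%) and 2 higher, with a median of -1.94. Overlap between the days was absent in 16 of 71, against 38.9% of all genes. With the filterByExpr filter on low counts only 11 were tested, 4 lower and 1 higher, at a median of -0.17. Without mice 9 and 37 there were 26 of 64 lower, and without the odd-numbered Day 0 mice 10 of 50. Their spliced host genes had 6 of 13 lower (46.2%), Snhg20 most (-2.83 ± 0.31), and 1 higher, Gas5 (1.13 ± 0.10), whose change was -0.02 with total counts.

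Among DEGs with at least 10 CPM and no overlap, the 8 largest falls outside the protein-coding class ran from -3.26 to -4.07. A130071D04Rik, a TEC model at chr1:138161820-138167683, went from 16.7, 21.4 and 24.7 CPM to 0.504, 0.937 and 2.30 CPM (-4.07 ± 0.35, adjusted p = 4.87e-06, edgeR). Gm43197, also TEC, was at -3.83 ± 0.29 and the lincRNA F730311O21Rik at -3.54 ± 0.33. The 8 largest falls of protein-coding genes were smaller, from -2.58 to -3.12, in Crybg2, Zfhx2, Ifi208, Slfn4, Krba1, Zfp169, Vamp1 and Sidt1. Vamp1, a vesicle membrane protein, had the smallest adjusted p of the comparison, 4.28e-07 by edgeR, falling from 16.7, 19.6 and 23.6 CPM to 2.16, 3.35 and 3.84 CPM. In the other direction the 8 noncoding or pseudogene rises lay between 2.64 and 3.09, led by the miRNA-annotated Gm24245 and Gm25732.

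**Figure D4:**
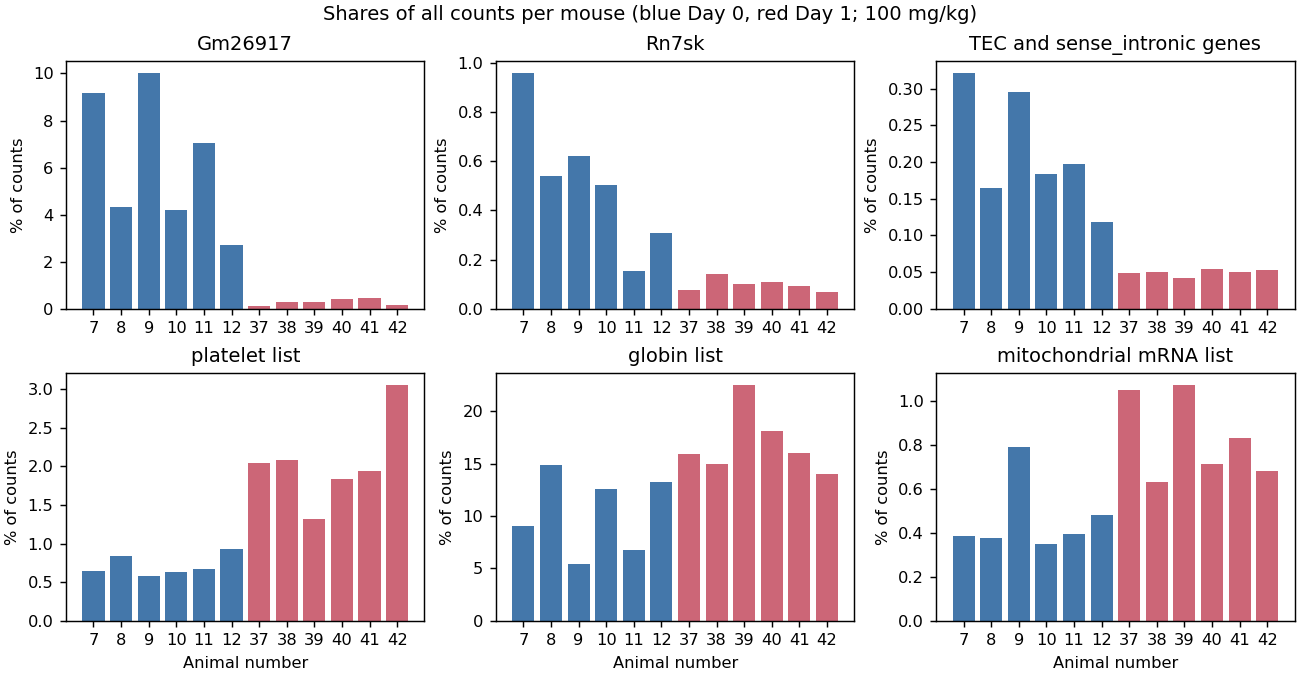
Percent of all raw counts per mouse taken by Gm26917, Rn7sk, TEC and sense_intronic models, the platelet list, the globin list and the mitochondrial mRNA list (axes differ, all start at 0). Gm26917 fell from 2.73 to 10.0% on Day 0 to 0.134 to 0.454% on Day 1, and the platelet list took 0.582 to 0.934% on Day 0 and 1.32 to 3.06% on Day 1.

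Markers of hepatocytes and adipocytes, cells that blood should not hold, stood high in a few mice. All 15 hepatocyte genes exceeded 10 CPM of total counts in Day 0 mouse 9 and in Day 1 mouse 37, and their summed level was 5471 and 3361 CPM there, 179 CPM in mouse 39 and 0.112 to 23.5 CPM in the other 9. Alb, serum albumin, ran from 0 to 878 CPM on Day 0 and 0 to 1478 CPM on Day 1 on the TMM scale. No hepatocyte gene was called by edgeR or DESeq2 with all 12 mice (0 of 15 had an unadjusted p under 0.05 in edgeR), and with mice 9 and 37 left out 13 of 15 were higher. Of 8 adipocyte genes 6 were higher (median 3.33), with overlap between the days for each, and 0 without the even-numbered Day 0 mice, with a summed level of 2.01 to 417 CPM on Day 0 and 8.42 to 416 CPM on Day 1. Among 6 endothelial genes Kdr, Tek and Emcn were higher, the first at 0.994 to 3.82 CPM on Day 0 and 6.83 to 19.5 CPM on Day 1, and edgeR called 0 of 10 stromal genes (3 at an unadjusted p under 0.05) and DESeq2 1. Their part in the other results was not tested, and without mice 9 and 37 the platelet (18 of 18), B cell (14 of 14) and mitochondrial (11 of 12) counts were as before. In the same fit natural killer genes went from 4 lower to 0, T cell genes from 15 to 13, structural small RNAs from 4 to 2, and red cell membrane genes from 7 higher to 5.

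Transcript length was compared by splitting protein-coding genes with a mean of at least 1 CPM into 5 bins of 2238 genes. The bin of the shortest exon length (243 to 2594 bases) had a median log2 fold change of 0.24, and the other bins lay between -0.11 and 0.05.

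In other treatments the same step was measured in separate mice. At 200 mg/kg 8357 of 22573 genes (37.0%) were DEGs, 2885 higher (12.8%) and 5472 lower (24.2%). Of genes tested at both doses, 7011 were DEGs in the same direction, which is 71.7% of those called at the lower dose and 85.3% of those called at the higher one, and 2 moved in opposite directions. The test of the difference between these changes called 0 of 24958 genes with edgeR (0.0%; smallest adjusted p 0.266), while 1536 had an unadjusted p under 0.05. Mitochondrial mRNAs had a median of 2.06 at the lower and 1.13 at the higher of these doses, and the platelet list 2.47 and 2.23.

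At 50 mg/kg fewer genes were called, with 1484 DEGs of 24169 (6.14%), 1331 higher (5.51%) and 153 lower (0.633%). The change at 100 mg/kg differed from it for 6642 of 25845 genes (25.7%), 1106 (4.28%) more positive and 5536 (21.4%) more negative. Platelet genes rose at both doses, with 17 of 18 called at 50 mg/kg at a median of 1.26, and 12 of 18 rose more at 100 mg/kg. Red cell membrane genes were called in 14 of 15 at 50 mg/kg (median 1.46) and 7 of 15 at 100 mg/kg (0.83), with 4 significantly less positive at the higher dose. Here too Day 0 was low at 50 mg/kg, as Epb41 averaged 4110 and 11048 CPM there. It averaged 12482 and 12073 CPM at 100 mg/kg and 13858 and 7388 CPM with vehicle. No B or T cell gene was called at 50 mg/kg (medians -0.62 and -0.15), and 7 of 14 and 16 of 17 were more negative at 100 mg/kg. Mitochondrial mRNAs had 0 of 11 called at 50 mg/kg, and 11 of 12 were more positive at 100 mg/kg.

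Against vehicle the difference of the changes was tested for each gene. With total counts these differences shifted by a median of -1.47, against 50 mg/kg by -0.38 and against 200 mg/kg by -0.28. Over all genes tested 15.7% were more positive and 26.3% more negative. All 18 platelet genes were more positive (median difference 2.98), 11 of 13 mitochondrial mRNAs (2.46), 15 of 22 cell cycle genes (1.58) and 11 of 15 red cell membrane genes (1.58). For the red cell membrane list the vehicle median was -0.91, with 0 of 15 called, beside 0.83 at 100 mg/kg. Its difference thus holds the lower vehicle median as well as the rise at 100 mg/kg. All 14 B cell genes were more negative (-1.51), 16 of 17 T cell genes (-1.76) and 10 of 10 MHC class II genes (-1.29). In single genes the difference from vehicle was 2.85 ± 0.44 for Clec1b (adjusted p = 1.08e-05, edgeR), -2.45 ± 0.36 for Bcl11b (adjusted p = 6.46e-06) and -3.05 ± 0.89 for Gm26917 (adjusted p = 0.00602).

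Scaled over all 48 unirradiated mice, mean levels placed the 100 mg/kg groups among the others. Ppbp averaged 1807 CPM at 100 mg/kg on Day 0 and 10317 CPM on Day 1, beside 1783 and 1456 CPM with vehicle, 887 and 2179 CPM at 50 mg/kg and 2528 and 10429 CPM at 200 mg/kg. Bcl11b averaged 71.9 and 14.0 CPM at 100 mg/kg, 71.9 and 79.6 CPM with vehicle and 64.3 and 16.6 CPM at 200 mg/kg. Cd74 averaged 1201 and 488 CPM at 100 mg/kg and 1191 and 1178 CPM with vehicle. For these 3 genes Day 0 at 100 mg/kg lay near the vehicle groups and Day 1 away from them.

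**Figure D5:**
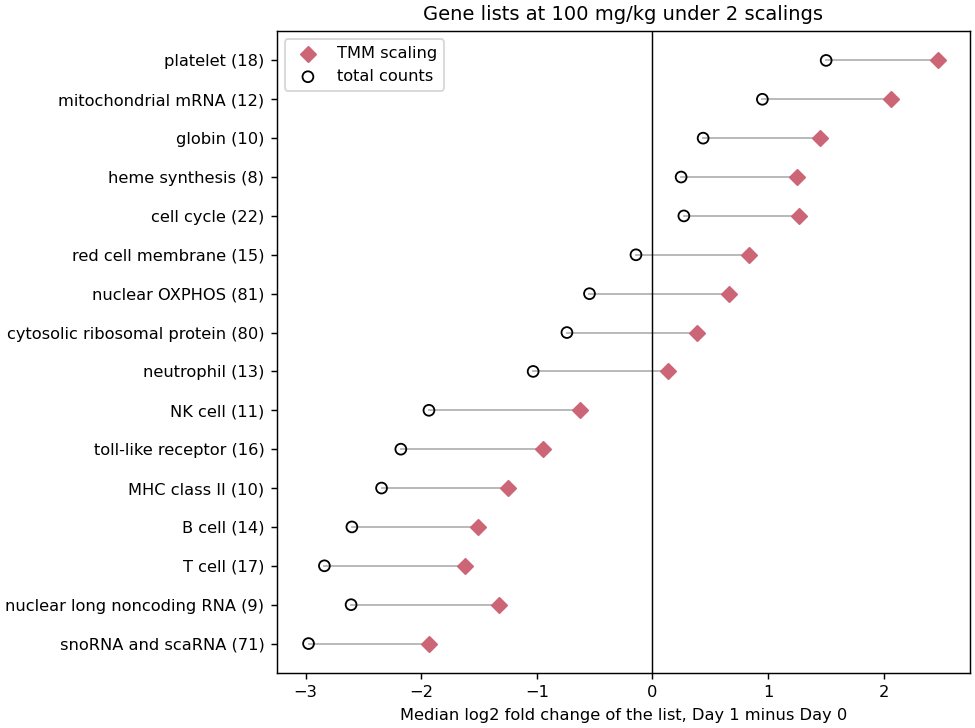
Median log2 fold change of 16 lists at 100 mg/kg, Day 1 minus Day 0, with TMM (diamonds) and with total counts (circles). Total counts lowered the medians, leaving B cell genes at -2.60 and turning red cell membrane, respiratory chain, ribosomal protein and neutrophil medians below 0.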

How the data were processed

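Whole blood was drawn into PAXgene tubes. The labels name poly(A) selection, whereas the methods of the study state that total RNA was used after removal of rRNA and globin transcripts, and it is not settled here which was used. Per the file headers and labels the deposited tables hold whole-number counts per gene, which the authors made with Trimmomatic 0.36, STAR 2.5.2b (GRCm38) and Subread 1.5.2, without normalization. The annotation release and the strand setting are not given in the sources used here. Further tables hold the fold changes and p-values of comparisons by the authors and were not used.

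The count files held 49315 genes each, of which 49056 matched GENCODE M21 identifiers for symbol, class and position. All 24 columns that recurred between tables were identical. Totals were 20432206 to 26407081 counts on Day 0 and 17187608 to 45589415 on Day 1. Between mice of a day the smallest chi-square per gene was 13.0, so no library repeated another. Mice were grouped by their labels. Each is a separate animal.

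Genes with at least 10 counts summed over the mice fitted were tested with edgeR 4.0.16 (limma 3.58.1, R 4.3.3 and the data.table package, version 1.17.8), TMM factors and a 2-sided quasi-likelihood test, with Benjamini-Hochberg adjustment across every tested gene. SE is the absolute log2 fold change divided by the square root of F. Differences between steps in time were contrasts in fits of 24 mice. DESeq2 1.42.0 was the second tool and left 648 adjusted p-values undefined. The pipeline was tested on simulated data. Gene lists are described by counts and medians with no test of the list. Named genes were the 8 largest rises and 8 largest falls with at least 10 CPM and no overlap, separately for protein-coding and other genes, and per list the 3 members with the highest level, the DEG with the largest change, and every DEG of a list with at most 5. Further list members were named after their values were seen, as were the permutation tests of Hbb-bs and Alas2. The members and lists were chosen with earlier results of these data known. Mitochondrial rRNA had no gene in the tables and was not analysed here. Some genes that the naming rule or the lists include are not reported here.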

Additional observations from a re-analysis of the deposited data

Results flagged for a closer look

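Of 102 groups of 6 mice examined for a single mouse far from the other 5, 7 had one, and chance gives about 1 in 20. Mouse 9 of Day 0 stood apart in 4 of them, with a mean hepatocyte list level of 6.66 log2(CPM + 1), 0.547% of counts on hepatocyte genes, 0.0417% on adipocyte genes and 0.791% on mitochondrial mRNAs. Mouse 37 of Day 1 stood apart in 2, with 0.336% of counts on hepatocyte genes and a mean aryl hydrocarbon receptor list level of 2.31 log2(CPM + 1). Mouse 38 of Day 1 had a mean structural small RNA level of 4.63 log2(CPM + 1). The part of these mice in the other results was not tested beyond leaving them out.

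The change from Day 0 to Day 1 at 100 mg/kg differed from that in vehicle-treated mice for 10890 genes, and from that at 50 mg/kg for 6642 genes, by edgeR's test of the difference between changes.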

How the results depend on the processing

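Leaving out 1 mouse at a time gave 8992 to 10384 DEGs at 100 mg/kg, 3315 to 4152 higher and 5633 to 6614 lower, and the same fits gave 7334 to 9253 DEGs for the 200 mg/kg mice, between 1135 and 1738 for the 50 mg/kg mice, and 0 to 0 with vehicle. The differences between changes gave 10179 to 11377 genes against vehicle, 5915 to 7225 against 50 mg/kg and 0 to 0 against 200 mg/kg. In the last 2 of these, leaving out the 50 and 200 mg/kg mice was not run. The filterByExpr filter gave 6046 DEGs, 3231 of them lower, at 100 mg/kg, and 5267 in the 200 mg/kg mice, on fewer genes tested. Total counts gave 955 higher and 12894 lower genes at 100 mg/kg, with 4116 DEGs in the 50 mg/kg mice, and turned the log2 fold changes of Csf3r (-1.10), Gas5 (-0.019), Klf6 (-1.14), Hspa8 (-1.02) and Klf9 (-0.14) negative. Of 37 lists, 21 had a positive median, and 12 of these were negative with total counts. Settings chosen after seeing the data left out the 3 odd-numbered Day 0 mice (6373 DEGs, 3916 lower), the 3 even-numbered ones (9937) or mice 9 and 37 (9280). DESeq2 called 9550 genes. The cause of these shifts was not tested. Of 110 named DEGs, 101 were called in each fit without 1 mouse, the others being Klrd1, Ccr2, Cfd, Hist1h2ap, Scarna10, Rmrp, Cox8b, Jund and Klf9. No paired analysis was possible because the days hold different animals and share no animal number. Abundant genes such as Hbb-bs had a wide SE in edgeR, and depth limits genes under 1 CPM.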
